A study of Mus musculus with 23 samples.

Results

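Ribosomal protein genes of the cytosolic ribosome were followed in mouse liver across 3 genotypes and 2 diets. Members were the rows of the deposited count table whose symbol is Rpl or Rps followed by a protein number (with the endings a, x and l, and numbered copies), together with Rplp0, Rplp1, Rplp2 and Rpsa. The rule found 84 of 24440 genes and used no measured value. They were 43 genes of the large subunit, 31 of the small subunit, the 3 genes of the stalk and 7 paralogs of another member. A filter on low counts left 81 of the 84 members and 12891 genes in all. Rpl10l, Rpl39l and Rpl3l, paralogs of another member each, did not pass, with at most 1, 2 and 3 counts in a library, and no test was made for them.

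Each cytosolic ribosome holds a large and a small subunit, and each subunit is built from ribosomal RNA and a set of proteins encoded by single genes spread over the genome. Most of these mRNAs start with a C followed by a run of pyrimidines, the terminal oligopyrimidine (TOP) motif, through which mTOR and the RNA-binding protein LARP1 control their translation as a group. The genes have many processed pseudogenes. Hepatocytes, which make most plasma proteins, are rich in ribosomes.

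The 23 libraries came from perfused livers of male mice on a C57Bl/6 background, obtained at 6 to 8 weeks of age from a commercial breeder. The genotypes were wild type (WT), a knockout of the cytokine IL-4 (IL4KO) and a double knockout of IL-10 and IL-4 (dKO), so the IL-4 knockout is named in both. Diets were normal chow or a diet with 60% of its energy as fat (HFD), each for 15 weeks. There were 4 mice in WT_chow, WT_HFD, IL4KO_chow, dKO_chow and dKO_HFD and 3 in IL4KO_HFD, with 1 library per mouse. The labels name no cell type to which a knockout is restricted. Replicates carry no numbers in the labels and are numbered here in accession order. Libraries were stranded, poly(A)-selected mRNA libraries.

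Library totals ran from 7114454 to 30205070 counts and were at least 16220799 in dKO_chow. Summed hepatocyte markers were 87682 to 98380 CPM (counts scaled to a common library size, with edgeR's TMM factors) in dKO_chow and 94144 to 150914 CPM in the other 5 groups. Summed neutrophil markers in dKO_chow were high, at 132 to 440 CPM, against at most 59.7 CPM elsewhere. Monocyte-derived macrophage markers were 601 to 985 CPM, against at most 344 CPM elsewhere. Kupffer cell, cholangiocyte, T and NK cell, and B and plasma cell sums also lay above every other library. Summed proliferation markers were 15.3 to 28.9 CPM in dKO_chow, above every library of WT_chow, IL4KO_chow and dKO_HFD (at most 12.6 CPM). They overlapped those of WT_HFD (12.7 to 21.1 CPM) and IL4KO_HFD (7.83 to 25.3 CPM). Endothelial, stellate cell and erythroid sums were not high in dKO_chow. Endothelial sums were 192 to 230 CPM, against 194 to 303 CPM elsewhere. Stellate cell sums were 261 to 344 CPM, against 178 to 676 CPM. Erythroid sums were 151 to 403 CPM, against 137 to 671 CPM. Skeletal and heart muscle markers were at or near 0 in every group. Summed testis markers were 14.3 CPM in WT_chow replicate 1 and 11.7 CPM in IL4KO_chow replicate 4, and at most 0.54 CPM in the other libraries. Il10 counts were 41 to 67 in the libraries labelled dKO_chow and 6 to 21 in those labelled dKO_HFD, against 0 to 4 in the other libraries, which is opposite to the label. Il4 had 0 to 3 counts in any library, and gene counts do not show which part of a gene is covered, so neither gene checks the labels. Genotype names below are those of the labels, and each direction that involves dKO rests on the libraries so labelled.

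The annotated start of the mRNA is shown for 13 of the members described below, with and without a match, since the TOP motif sits there. Of 84 members, 63 have an entry in the RefSeq promoter table (GRCm38.p6), 60 of them tested. Each line gives 20 bases before the start and 10 from it, 5′ to 3′ on the gene strand, and capitals mark a C within 5 bases of the start with the run of C or T that follows it, as far as the line reaches.
Rps6, chr4:86857358-86857387, minus strand: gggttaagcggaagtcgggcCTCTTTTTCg
Rps10, chr17:27635235-27635264, minus strand: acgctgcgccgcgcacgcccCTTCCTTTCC
Rps26, chr10:128626497-128626526, minus strand: agcgggtcgggcaagccgccggatCCTCTT
Rps27, chr3:90213639-90213668, minus strand: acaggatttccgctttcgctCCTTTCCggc
Rps27l, chr9:66946066-66946095, plus strand: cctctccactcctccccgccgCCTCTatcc
Rpl7a, chr2:26910787-26910816, plus strand: ccacaattccctcttctttCTTTCTCCagc
Rpl13a, chr7:45128736-45128765, minus strand: gataagaaaccctgcgacaagaCCTCCTCC
Rpsa, chr9:120127746-120127775, plus strand: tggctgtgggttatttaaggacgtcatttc
Rplp0, chr5:115559447-115559476, plus strand: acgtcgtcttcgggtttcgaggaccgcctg
Rpl7l1, chr17:46782647-46782676, minus strand: gcccggtgaggctgcgcaagcgcagtagct
Rpl22, chr4:152325706-152325735, plus strand: ccgacttcgccctgggaaaagcaatagctg
Rpl23, chr11:97782430-97782459, minus strand: gctggacgaggtccggtcacgtggctgagt
Rpl24, chr16:55966255-55966284, plus strand: taggaagaaagctgttgctaggaaacagac
The starts of Rpsa, Rplp0, Rpl7l1, Rpl22, Rpl23 and Rpl24 hold no such run in this window and have no capitals. Rps27l and Rpl22 have 2 annotated starts each, and the other start of either holds none either.

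With a C within 5 bases of the start and at least 4 C or T after it, 29 of 60 tested members (48.3%) matched, against 24.0% of the 9820 tested genes in the table and 21.2% of all 27025 symbols. Among genes with 1 annotated start the shares were 45.1% of 51 members and 20.4% of 7799 genes. In the 300 bases from 250 before to 50 after the start, CCGGAAG on either strand (the core bound by ETS factors such as GABPA) was in 41.7% of tested members and 19.3% of tested genes. The YY1 core AAGATGGC, also on either strand, was in 10% of members and 5.15% of genes, and the E-box CACGTG, which is its own reverse complement, in 10% and 11.7%. TATAA at 40 to 15 bases before the start on the gene strand was in 8.33% of members and 3.07% of genes. Such matches describe the annotated windows only.

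Members spanned a wide range of levels per transcript length. Among the highest mean levels over all libraries were 333 CPM per kb for Rpl41, 300 for Rpl8, 208 for Rpl4 and 173 for Rps2. At the other end were Rpl37 at 0.954 CPM per kb, Rps15a at 2.12, Rplp2 at 2.90, Rpl12 at 2.99 and the paralog Rpl22l1 at 4.45, and the median of 80 members was 30.6. Beside Rplp2, the count table has a row named for a pseudogene of it, Rplp2-ps1, which held 118 ± 5.18 CPM in WT_chow (SD, n = 4), while Rplp2 held 3.87 ± 0.554 CPM there.

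Summed over the 84 members, counts took 0.295% to 0.522% of a library. WT_chow libraries had shares of 0.417%, 0.432%, 0.457% and 0.425%, and dKO_chow libraries 0.448%, 0.522%, 0.439% and 0.505%. The other groups were lower, at 0.344%, 0.357%, 0.309% and 0.347% in WT_HFD and 0.363%, 0.372%, 0.370% and 0.340% in IL4KO_chow. In IL4KO_HFD the shares were 0.325%, 0.368% and 0.324%, and in dKO_HFD 0.314%, 0.326%, 0.295% and 0.385%. Every WT_chow and dKO_chow library thus lay above every library of the other 4 groups, the nearest being dKO_HFD replicate 4. In bulk tissue, fewer cells of a type and less RNA per cell cannot be told apart. Of 81 tested members, 42 had their highest group mean of log2 CPM in WT_chow, 38 in dKO_chow and 1, Rps27l, in WT_HFD. The lowest group mean of log2 CPM was in IL4KO_HFD for 35 members, dKO_HFD for 27, WT_HFD for 12, IL4KO_chow for 6 and dKO_chow for 1. No share over all tested genes is set beside these counts, so they do not show what is particular to the members. Of all tested genes 24.4% were higher and 21.9% were lower in dKO than in WT on chow.

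**Figure D1:**
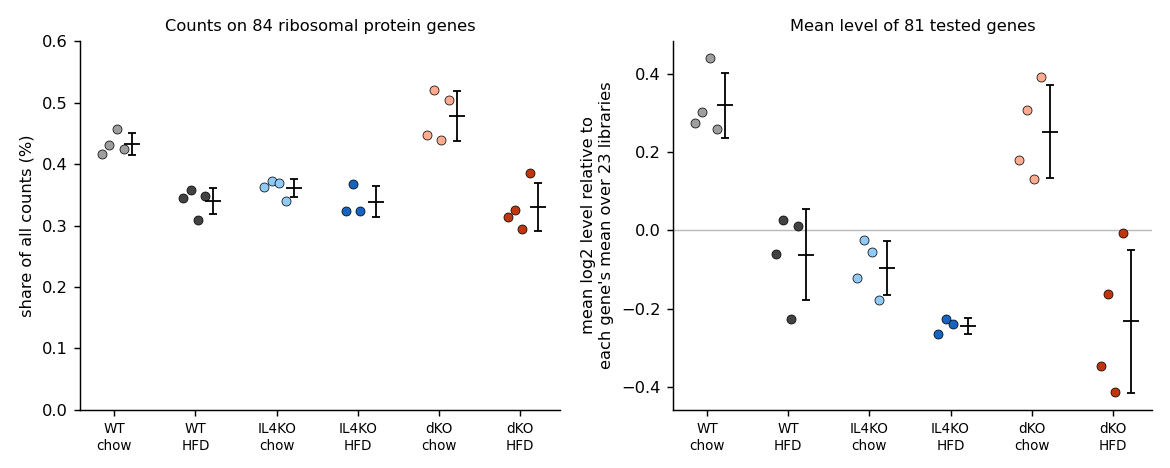
Ribosomal protein genes in each of 23 libraries. Left, the share of all counts on the 84 members (%), and right, the mean over 81 tested members of the log2 level relative to each gene's mean over the 23 libraries. Points are libraries and bars are group mean ± SD (n = 4, or 3 in IL4KO_HFD). WT_chow and dKO_chow shares of 0.417% to 0.522% lie above those of the other 4 groups, at 0.295% to 0.385%.

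In wild-type livers, HFD went with lower ribosomal protein mRNA. Of 81 members, 44 fell and none rose, with 79 of the 81 log2 fold changes below 0 and a median of -0.38. Calls are at a false discovery rate (FDR) below 0.05, the Benjamini-Hochberg adjusted p of edgeR's quasi-likelihood test over 12891 genes. Over all those genes 9.84% were lower, 9.63% were higher and the median was -0.00. The 44 were 23 large-subunit genes, 17 small-subunit genes, the stalk genes Rplp0 and Rplp1, and the paralogs Rpl7l1 and Rps4l.

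Rpsa, a small-subunit protein also known as the laminin receptor (gene at chr9:120127689-120132369, plus strand, GENCODE vM21 on GRCm38), had 123, 124, 130 and 117 CPM in WT_chow. In WT_HFD it had 80.9, 88.6, 70.2 and 78.8 CPM, below every chow library. The log2 fold change was -0.63 ± 0.10 (SE, n = 4 and 4) with FDR 0.00033 by edgeR. Rplp0, the stalk protein that anchors Rplp1 and Rplp2, had 190, 191, 198 and 192 CPM on chow and 141, 142, 114 and 128 CPM on HFD. It fell by 0.55 ± 0.10 on the log2 scale (edgeR FDR 0.000489).

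By size, the calls of the diet effect in WT were led by Rpl35a, Rps21, Rpl36, Rpsa, Rpl18 and Rps4l. Rpl35a, a large-subunit protein mutated in some patients with Diamond-Blackfan anaemia, had 31.7, 38.2, 42.6 and 40.2 CPM on chow and 21, 20.7, 16.1 and 19.5 CPM on HFD. Its log2 fold change was -0.97 ± 0.21 (edgeR FDR 0.00353), the groups being apart. Rps21 of the small subunit fell by 0.73 ± 0.15, Rpl36 of the large subunit by 0.68 ± 0.15 and Rpl18 of the large subunit by 0.63 ± 0.14 on the log2 scale. Rps4l, a paralog of Rps4x, had 18.7, 18.8, 24.4 and 18.6 CPM on chow and 8.00, 18.4, 14.02 and 11.9 CPM on HFD, with FDR 0.0493, and its call was lost under 19 of 35 other settings. Other values move with this comparison: 3 of 9 hepatocyte markers fell and 3 of 6 stellate cell and 4 of 4 proliferation markers rose, with summed stellate markers of 234 to 280 CPM on chow and 353 to 488 CPM on HFD. Summed cholangiocyte markers were 44.4 to 52.1 CPM on chow and 70.5 to 105 CPM on HFD, with 1 of 6 genes lower and none higher by the test. Summed monocyte-derived macrophage markers were 69.5 to 111 CPM and 113 to 137 CPM, with 1 of 7 higher. Their part in the result was not tested.

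In the double knockout, HFD went with lower levels of most members. Of 81, 67 fell and none rose, 80 log2 fold changes were below 0 and the median was -0.46. Over all tested genes 20.5% were lower, 19.4% were higher and the median was -0.02. The calls were 35 of 43 large-subunit genes, 28 of 31 small-subunit genes, all 3 stalk genes and 1 of 4 tested paralogs, Rpl7l1. Leaving out any of the 23 libraries or changing the method left 56 to 69 calls.

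Rps27a, which encodes ubiquitin fused to a small-subunit protein (chr11:29545846-29548109, minus strand), had 25.2, 28.5, 44.4 and 26.6 CPM in dKO_chow and 13.8, 15.7, 13.1 and 18.4 CPM in dKO_HFD. The groups did not overlap, 1 chow library was far above the rest, and the log2 fold change was -1.03 ± 0.14 (edgeR FDR 1.39e-05). Rpsa had 130, 157, 119 and 159 CPM in dKO_chow and 83.6, 88.6, 74.6 and 111 CPM in dKO_HFD, a log2 fold change of -0.66 ± 0.10 (edgeR FDR 5.89e-05). Here too every HFD library was below every chow library, with dKO_HFD replicate 4 the nearest. Rps6, the small-subunit protein phosphorylated by the mTOR pathway's S6 kinases, had 134, 174, 131 and 166 CPM in dKO_chow and 103, 110, 104 and 119 CPM in dKO_HFD. It fell by 0.47 ± 0.09 on the log2 scale (edgeR FDR 0.00033), without overlap.

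The other members named by size in the diet effect in dKO were Rps12 (-1.04 ± 0.41), Rpl12 (-0.92 ± 0.23), Rpl26 (-0.83 ± 0.26), Rpl28 (-0.80 ± 0.25) and Rps28 (-0.76 ± 0.27), all low in CPM. Rpl12, a large-subunit protein at the base of the stalk, had 4.79, 6.69, 2.92 and 4.29 CPM on chow and 1.96, 2.88, 1.81 and 3.36 CPM on HFD, so its groups overlapped. The FDR of Rps12 was 0.0487, and its call was lost under 23 of 35 other settings. Leaving out dKO_HFD replicate 2 ended the call of Rpl26, dKO_chow replicate 4 that of Rpl28, and dKO_chow replicate 1 or 4 or dKO_HFD replicate 1 or 3 that of Rps28. Rpl5 and Rpl11, the large-subunit proteins that bind 5S ribosomal RNA and MDM2, each fell by 0.46 on the log2 scale, with SE 0.09 and 0.11. Rpl3, near the peptidyl transferase centre, fell by 0.55 ± 0.11. Marker sums moved in this comparison as well: 6 of 9 hepatocyte markers rose, and all 6 Kupffer cell, all 8 neutrophil and all 6 cholangiocyte markers fell. Kupffer cell markers summed to 462 to 633 CPM in dKO_chow and 168 to 412 CPM in dKO_HFD. Proliferation markers summed to 15.3 to 28.9 CPM in dKO_chow and 4.57 to 12.6 CPM in dKO_HFD. The part of these in the fall of the members was not tested.

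In IL4KO livers few members passed the test of diet. In all 5 fell, among them Rpsa, Rps26 and Rpl10a, none rose, 66 of 81 log2 fold changes were below 0 and the median was -0.16. Over all tested genes 3.94% were lower and 5.14% were higher, so the share of 5 in 81 is near that of all genes. Rpsa had 113, 109, 110 and 108 CPM on chow and 71.8, 83.3 and 82.6 CPM on HFD, without overlap and with a log2 fold change of -0.48 ± 0.12 (edgeR FDR 0.0125). Rps26, a small-subunit protein at the mRNA exit, had 24.0, 26.2, 24.7 and 24.9 CPM on chow and 17.4, 20.7 and 18.9 CPM on HFD, again without overlap (-0.40 ± 0.10, edgeR FDR 0.0206). Rpl10a of the large subunit fell by 0.32 ± 0.10 on the log2 scale (edgeR FDR 0.0454). The count of 5 was 0 without IL4KO_HFD replicate 1, 2 without replicate 2 and 3 without replicate 3. It was 2, 1 and 2 without IL4KO_chow replicates 1, 2 and 3. Marker sums varied widely in IL4KO_HFD, with replicate 2 apart: macrophage markers summed to 293 CPM there and 84.6 and 77.9 CPM in the other libraries, and cholangiocyte markers to 170 CPM against 48.7 and 42.9 CPM. Stellate cell markers summed to 312, 676 and 252 CPM in IL4KO_HFD, above the 178 to 248 CPM of IL4KO_chow, and 3 of 6 rose. Hepatocyte sums were 94144 to 141758 CPM on HFD and 105590 to 134217 CPM on chow. The part of these in the result was not tested.

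The 5 genes that fell in IL4KO also fell with HFD in WT and in dKO. WT and dKO share no library. Of the members 39 fell in both, which is 88.6% of the 44 in WT and 58.2% of the 67 in dKO. With 67 of 81 members lower in dKO, most of a list of any members would be shared. The overlap was not tested, and no share over all tested genes is set beside it. Rpl18, Rpl22, Rpl35a, Rps2 and Rps4l passed in WT and not in dKO. For Rps2 the values were 203, 205, 198 and 186 CPM in WT_chow against 153, 178, 152 and 158 CPM in WT_HFD. In dKO it had 177, 176, 153 and 189 CPM on chow and 162, 162, 146 and 188 CPM on HFD, so those groups overlapped, and the difference between its diet effects was 0.22 ± 0.12 (edgeR FDR 0.155). In neither genotype did Rpl22l1, Rpl23, Rpl24, Rpl27, Rpl30, Rpl34, Rps27, Rps27l or Rps29 pass.

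**Figure D2:**
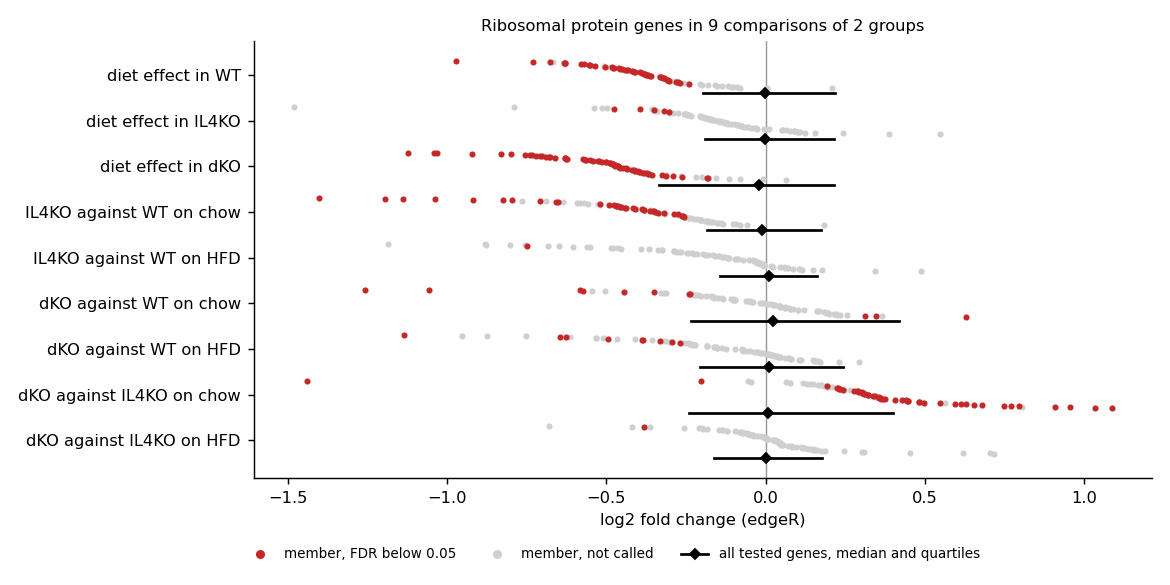
Log2 fold change of each of 81 tested members in the 9 comparisons of 2 groups (x axis, second-named group as the reference, and HFD minus chow for diet). Red points passed edgeR's test at FDR below 0.05, grey points did not, and black diamonds and lines give the median and quartiles of all 12891 tested genes. The members' medians are -0.38 and -0.46 for diet in WT and dKO, -0.35 for IL4KO against WT on chow and 0.32 for dKO against IL4KO on chow.

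The difference between diet effects was tested directly. Between IL4KO and WT no member passed, higher or lower, where 0.0155% and 0.031% of all tested genes did. Of the members, 19 (23.5%) had an unadjusted edgeR p below 0.05, all with a difference above 0, meaning less of a fall or a rise in IL4KO. Over all tested genes 10.7% had such a p, in either direction, and 4.98% had it with a difference above 0. Members vary together between mice, so these 19 are not independent of each other. The differences were above 0 for 73 of 81 members, with a median of 0.18. None passed with DESeq2, limma-voom or limma on the deposited log2 values either. Between dKO and WT 12.6% of all tested genes passed in each of the directions, higher and lower. Of the members 3 small-subunit genes passed, each with a larger fall in dKO, and none the other way. These were Rps27a (-0.65 ± 0.20), Rps10 (-0.44 ± 0.15) and Rps7 (-0.35 ± 0.12), with edgeR FDR of 0.0227, 0.0385 and 0.0362. This share, 3 of 81, is below that of all genes. An unadjusted edgeR p below 0.05 was found here for 5 members (6.17%) and for 38.5% of all tested genes. The count was 0 without WT_HFD replicate 4 or dKO_HFD replicate 3. It was 1 without WT_chow replicate 2, IL4KO_chow replicate 4, dKO_chow replicate 4 or dKO_HFD replicate 1, and 7 without dKO_HFD replicate 4.

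Between dKO and IL4KO 13 members passed with a difference below 0 and none above 0, where 11.7% and 12.7% of all tested genes did. Each of the 13 fell in dKO. In IL4KO some fell less, and others, among them Rpl26 (0.55) and Rps24 (0.16), had log2 fold changes above 0. The differences had a median of -0.29, and 77 of 81 were below 0. An unadjusted edgeR p below 0.05 was found for 29 members (35.8%), none with a difference above 0. Over all tested genes 37.7% had such a p, and 19.4% had it with a difference above 0. Among the 13 were Rps4x, Rps6, Rps9, Rps10, Rps14, Rps24 and Rps27a of the small subunit and Rpl13a, Rpl26, Rpl39 and Rpl41 of the large subunit. Rps6 had 109, 116, 112 and 109 CPM in IL4KO_chow and 117, 102 and 109 CPM in IL4KO_HFD, where its groups overlapped, while in dKO every HFD library was below every chow library. The difference of the log2 fold changes was -0.44 ± 0.13 (edgeR FDR 0.0192). The largest difference, of Rpl26 (-1.38 ± 0.41, FDR 0.0185), was lost with the deposited log2 values and without IL4KO_HFD replicate 1, which had 6.17 CPM against 3.02 and 2.56 CPM in the other 2 libraries. The count of 13 was 5 without IL4KO_HFD replicate 2, 8 without IL4KO_chow replicate 4, 28 without dKO_HFD replicate 4 and 28 with upper quartile scaling.

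On chow, IL4KO livers had lower levels of many members than wild type. Of 81, 36 were lower and none was higher, 80 log2 fold changes were below 0 and the median was -0.35. Over all tested genes 3.68% were lower, 5.93% were higher and the median was -0.01. The calls were 18 large-subunit genes, 16 small-subunit genes, Rplp2 and Rpl7l1. This comparison shares its WT_chow libraries with the diet effect in WT, so these results are not independent. There were 19 calls without WT_chow replicate 3, 23 without WT_chow replicate 2 and 20 without IL4KO_chow replicate 4. WT_chow replicate 1 and IL4KO_chow replicate 4 are the libraries with testis markers, and 35 calls were left without the former. Of the marker lists no gene was called except 1 of 5 endothelial genes, which was higher, and hepatocyte sums were 105590 to 134217 CPM in IL4KO_chow and 130250 to 133444 CPM in WT_chow.

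Rpl36, a short large-subunit mRNA, had 8.88, 7.67, 7.97 and 9.11 CPM in WT_chow and 3.34, 4.70, 4.86 and 5.01 CPM in IL4KO_chow, with no overlap. Its log2 fold change was -0.92 ± 0.16 (edgeR FDR 0.000596). Rps21 had 10.4, 9.21, 9.69 and 9.21 CPM in WT_chow and 7.51, 6.32, 5.58 and 3.76 CPM in IL4KO_chow, also apart (-0.71 ± 0.15, edgeR FDR 0.0052). The largest log2 fold changes were those of mRNAs at under 10 CPM: Rps27 (-1.40 ± 0.35), Rpl9 (-1.20 ± 0.29), Rpl38 (-1.14 ± 0.28), Rps28 (-1.04 ± 0.30) and Rpl12 (-0.83 ± 0.24). Rpl38, a large-subunit protein known for a role in the translation of Hox mRNAs, had 6.01, 3.59, 5.25 and 3.10 CPM in WT_chow and 1.48, 1.99, 2.43 and 2.37 CPM in IL4KO_chow. These groups did not overlap (edgeR FDR 0.0117). Rpsa, with -0.16 ± 0.10, did not pass (FDR 0.348).

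The double knockout on chow had more of most members than IL4KO on chow. Of 81 members 48 were higher and 2, Rps29 and Rps27l, were lower, 77 log2 fold changes were above 0 and the median was 0.32. Over all tested genes 23% were higher, 22.2% were lower and the median was 0.01. The 48 were 23 large-subunit genes, 22 small-subunit genes, Rplp0, Rplp2 and Rpl7l1. The IL4KO_chow libraries are shared with IL4KO against WT on chow, and the dKO_chow libraries with the diet effect in dKO. The call of Rps29 rested on IL4KO_chow replicate 2, with 9.39 CPM against 1.11 to 1.39 CPM in the others: without it the log2 fold change went from -1.44 to 0.02 (edgeR FDR 0.973).

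Rpl23, a large-subunit protein that binds MDM2 (chr11:97777527-97782437, minus strand), had 37.4, 45.2, 32.2 and 41.7 CPM in dKO_chow and 20.3, 21.5, 16.4 and 17.8 CPM in IL4KO_chow. Its groups were far apart, with a log2 fold change of 1.03 ± 0.17 (edgeR FDR 9.11e-05). Rpl13a, the large-subunit protein of the interferon-activated GAIT complex, had 38.0, 48.7, 38.0 and 38.4 CPM in dKO_chow and 25.1, 23.3, 25.9 and 21.3 CPM in IL4KO_chow. It was higher by 0.77 ± 0.12 (edgeR FDR 3.09e-05), again with no overlap. Further calls named by size were Rpl9 (1.09 ± 0.29), Rpl26 (0.96 ± 0.28), Rpl38 (0.91 ± 0.27) and Rps27a (0.80 ± 0.14). In the same comparison 7 of 9 hepatocyte markers were lower, and 6 of 6 Kupffer cell, 8 of 8 neutrophil, 6 of 7 T and NK cell and 6 of 6 cholangiocyte markers were higher. Proliferation markers summed to 15.3 to 28.9 CPM in dKO_chow and 6.83 to 9.12 CPM in IL4KO_chow. The part of these cells and of proliferation in the members' levels was not tested.

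Against wild type on chow the double knockout had members on both sides of 0. Of 81, 3 were higher and 8 were lower, 39 log2 fold changes were above 0 and 42 below, and the median was -0.01. Over all tested genes 24.4% were higher and 21.9% were lower, so in both directions the members' share is below that of all genes. The split moved with the scaling: upper quartile factors gave 9 higher and 6 lower, and the deposited log2 values 5 and 5. Higher were Rpl23 (0.63 ± 0.17, edgeR FDR 0.00476), Rps27a (0.35 ± 0.14, FDR 0.0434) and Rpl13a (0.31 ± 0.12, FDR 0.0308). For Rpl23 the WT_chow libraries had 24.8, 27.2, 24.4 and 25.1 CPM, all below the dKO_chow libraries. The call of Rps27a was lost under 22 of 35 other settings, among them without dKO_chow replicate 3, its 44.4 CPM library.

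Of the 8 lower members in dKO against WT on chow, 6 are named by size: Rps29 (-1.26 ± 0.50), Rps27 (-1.06 ± 0.30), Rpl24 (-0.58 ± 0.17), Rpl36 (-0.57 ± 0.14), Rps27l (-0.45 ± 0.08) and Rpl7a (-0.35 ± 0.09). Rpl24, a large-subunit protein at the subunit bridge, had 7.77, 6.04, 8.79 and 6.39 CPM in WT_chow and 5.17, 4.12, 4.201 and 5.83 CPM in dKO_chow, without overlap (edgeR FDR 0.00707). It had 4.54, 4.24, 5.005 and 4.597 CPM in IL4KO_chow, below WT_chow as well (-0.66 ± 0.18, edgeR FDR 0.0223). Rpl7a, a large-subunit protein, had 40.4, 36.0, 40.8 and 36.7 CPM in WT_chow and 29.4, 35.1, 27.7 and 28.4 CPM in dKO_chow, close but apart (edgeR FDR 0.00399).

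On HFD few members passed between genotypes. IL4KO against WT had 1 lower member, Rpl24, and none higher, where 1.29% and 1.73% of all tested genes passed. Rpl24 had 3.77, 3.13 and 4.72 CPM in IL4KO_HFD and 6.26, 5.24, 5.49 and 8.67 CPM in WT_HFD, with a log2 fold change of -0.75 ± 0.20 (edgeR FDR 0.0435), and its call was lost under 17 of 35 other settings. The count was 0 when any 1 of the 4 IL4KO_chow libraries, WT_HFD replicate 4, or replicate 1 of IL4KO_HFD, dKO_chow or dKO_HFD was left out. In dKO against WT 9 members were lower and none was higher, against 11.6% and 12.9% of all tested genes, so the share of 9 in 81 is near that of all genes. By size they include Rpl12 (-0.65 ± 0.24), Rpl24 (-0.63 ± 0.17), Rpl36a (-0.50 ± 0.17), Rps27l (-0.39 ± 0.08), Rpl39 (-0.38 ± 0.12) and Rpl11 (-0.33 ± 0.11). The count was 3, 4 and 16 without dKO_HFD replicates 1, 3 and 4, 5 without WT_HFD replicate 1, 2 or 4, and 14 without IL4KO_HFD replicate 2. In dKO against IL4KO only Rps27l was called, and it was lower, where 1.56% of all tested genes were lower and 0.946% were higher. Without IL4KO_HFD replicate 1 or 2 or dKO_HFD replicate 4 it was not called.

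**Figure D3:**
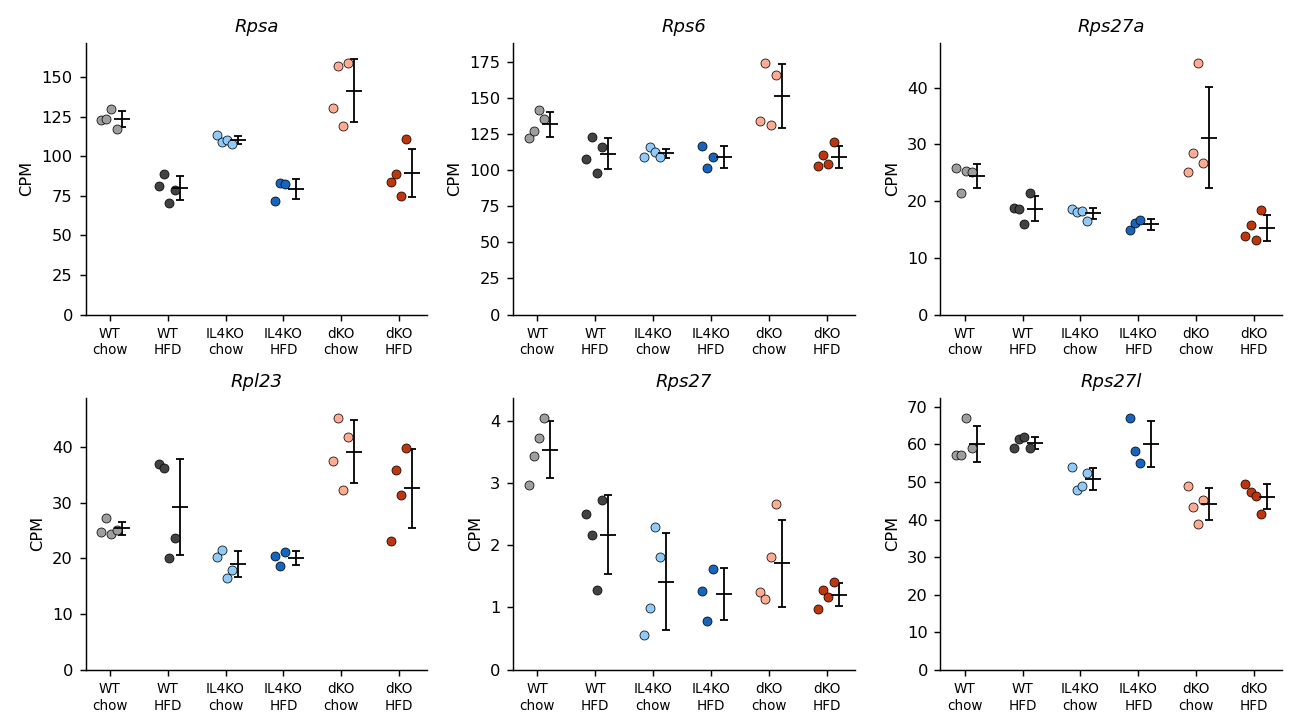
Levels (CPM) of 6 members in each library by group. Points are libraries and bars are mean ± SD (n = 4, or 3 in IL4KO_HFD). Rpsa is lower on HFD in each genotype, Rps6 and Rps27a are lower on HFD in dKO, Rpl23 is high in dKO_chow, Rps27 is highest in WT_chow and Rps27l is lower in both dKO groups than in WT.

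Among the 4 tested paralogs, Rpl7l1 was lower with HFD in WT and dKO, Rps4l passed in WT, and Rpl22l1 and Rps27l in neither. Rps27l, a p53-induced paralog of Rps27 (chr9:66946086-66949516, plus strand), had 57.1, 57.2, 67.0 and 59.1 CPM in WT_chow and 59.0, 61.5, 61.9 and 59.1 CPM in WT_HFD. In IL4KO it had 54.0, 48.0, 48.9 and 52.4 CPM on chow and 67.0, 58.3 and 55.1 CPM on HFD. In dKO it had 49.0, 43.4, 38.7 and 45.3 CPM on chow and 49.5, 47.4, 46.3 and 41.4 CPM on HFD. Every dKO library was below every WT library, while the diets overlapped within WT and within dKO. Diet gave FDR of 0.971, 0.0749 and 0.536 in WT, IL4KO and dKO. Against WT the dKO was lower by 0.45 ± 0.08 on chow (edgeR FDR 9.95e-05) and 0.39 ± 0.08 on HFD (edgeR FDR 0.00123), each log2, and these calls stood under all 35 other settings. Against IL4KO it was lower by 0.20 ± 0.08 on chow (edgeR FDR 0.0383) and 0.38 ± 0.08 on HFD (edgeR FDR 0.02), calls that were lost under 7 and 5 of the 35.

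Rps27 itself (chr3:90212522-90213651, minus strand) had 2.96, 3.42, 3.71 and 4.04 CPM in WT_chow and 2.50, 2.156, 1.28 and 2.73 CPM in WT_HFD. In IL4KO_chow it had 0.556, 0.993, 2.29 and 1.81 CPM, and in dKO_chow 1.25, 1.14, 1.81 and 2.66 CPM. WT_chow lay above all of these libraries, and Rps27 was lower on chow in IL4KO (edgeR FDR 0.0121) and in dKO (edgeR FDR 0.00705). Without IL4KO_chow replicate 1 or 2 the former call was lost. Only 1.35% of the 50-base stretches of the Rps27 transcript occur in no other gene's transcripts, against 77.6% for Rps27l, so counts of Rps27 are uncertain.

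Rpl22l1 and Rpl22 are paralogs that can compensate for each other in mice. Rpl22 had 70.4, 68.0, 76.3 and 67.4 CPM in WT_chow and 59.4, 61.4, 60.5 and 57.7 CPM in WT_HFD, without overlap (-0.24 ± 0.07, edgeR FDR 0.0128). It had 61.1, 58.5, 57.5 and 62.0 CPM in dKO_chow, lower than WT_chow by 0.24 ± 0.06 on the log2 scale (edgeR FDR 0.00489). Rpl22l1, at 1.02 to 4.84 CPM over all libraries, passed no test, as did Rpl27, Rpl30 and Rpl34 in the 9 comparisons of 2 groups. Rpl7l1, a paralog of Rpl7 with a role in ribosome assembly, had 57.3, 58.5, 55.9 and 54.5 CPM in WT_chow and 42.9, 46.6, 44.6 and 46.9 CPM in WT_HFD. Those groups were apart (-0.32 ± 0.07, edgeR FDR 0.00266), and in dKO the diet effect was -0.18 ± 0.07 (edgeR FDR 0.0371).

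With group means removed, members still varied together between mice. The median correlation of log2 levels over the 3240 pairs of members was 0.35 in 23 libraries, and 90.4% of pairs were above 0, given as a description since all pairs share libraries, depth and scaling. The highest mean correlations with the other members were 0.528 for Rpsa, 0.525 for Rpl13 and 0.499 for Rpl32. The lowest were -0.083 for Rps27l, 0.019 for Rpl36a and 0.056 for Rpl37, the last at under 2 CPM.

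Other genes of the translation machinery were described by the same counts, to be read against 9.84% lower and 9.63% higher of all tested genes for diet in WT and 20.5% and 19.4% in dKO. Genes of the ribosome outside the symbol rule fell with diet in 4 of 5 cases in WT (median -0.48) and 3 of 5 in dKO (median -0.39). Among them Gnb2l1, the scaffold RACK1, fell by 0.48 ± 0.09 and 0.49 ± 0.09, and Fau, a ubiquitin-like fusion to a small-subunit protein, fell by 0.55 ± 0.11 and 0.39 ± 0.10, in WT and dKO. Of 10 elongation factors and other TOP mRNAs, 4 fell in WT (median -0.19) and 5 in dKO (median -0.20), with none higher in either. Eef2, the translocase of elongation, fell in WT (-0.43 ± 0.10, edgeR FDR 0.00319), and its value in dKO was -0.14 ± 0.10 (FDR 0.265). In IL4KO no gene of these 2 lists passed.

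Of 28 initiation factors 9 fell and none rose in WT, while in dKO 7 rose and 3 fell, near or below the shares of all tested genes there (19.4% and 20.5%). Eif3i, a subunit of the factor that recruits the small subunit, fell in WT (-0.39 ± 0.06, edgeR FDR 0.000116), and Eif4g1, the cap-complex scaffold, rose in dKO (0.59 ± 0.09, edgeR FDR 4.12e-05). Of 43 genes for ribosome assembly and RNA polymerase I, 8 fell in WT, among them Polr1c (-0.49 ± 0.10) and Nolc1 (-0.36 ± 0.09). In dKO 6 of them fell and 1, Nmd3, the export adaptor of the large subunit, rose (0.44 ± 0.09), both below the shares of all tested genes. Of 21 regulators of ribosomal protein synthesis, 1 rose and 2 fell in WT and 11 rose and 1 fell in dKO. Mtor, the kinase itself, rose in WT (0.34 ± 0.10) and in dKO (0.59 ± 0.10), and Larp1 fell in WT (-0.49 ± 0.08, edgeR FDR 0.000356). These values are of mRNA and do not measure kinase activity or translation.

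Mitochondrial ribosomal proteins build the separate ribosome of mitochondria. Of 77, 3 rose and 2 fell with diet in WT (median -0.05) and 19 rose and none fell in dKO (median 0.12). Over all tested genes 9.63% rose and 9.84% fell in WT, and 19.4% rose and 20.5% fell in dKO. The share of 19 in 77 is thus near that of all genes. On chow 51 of the 77 were lower in dKO than in WT, against 21.9% of all tested genes. Their median was -0.30, where the cytosolic members had -0.01. Of 71 tested subunits of the respiratory chain and ATP synthase, many also short abundant mRNAs, 45 rose in dKO on HFD and none fell (median 0.29). The lists were described by counts, and no test compared one list with another.

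**Figure D4:**
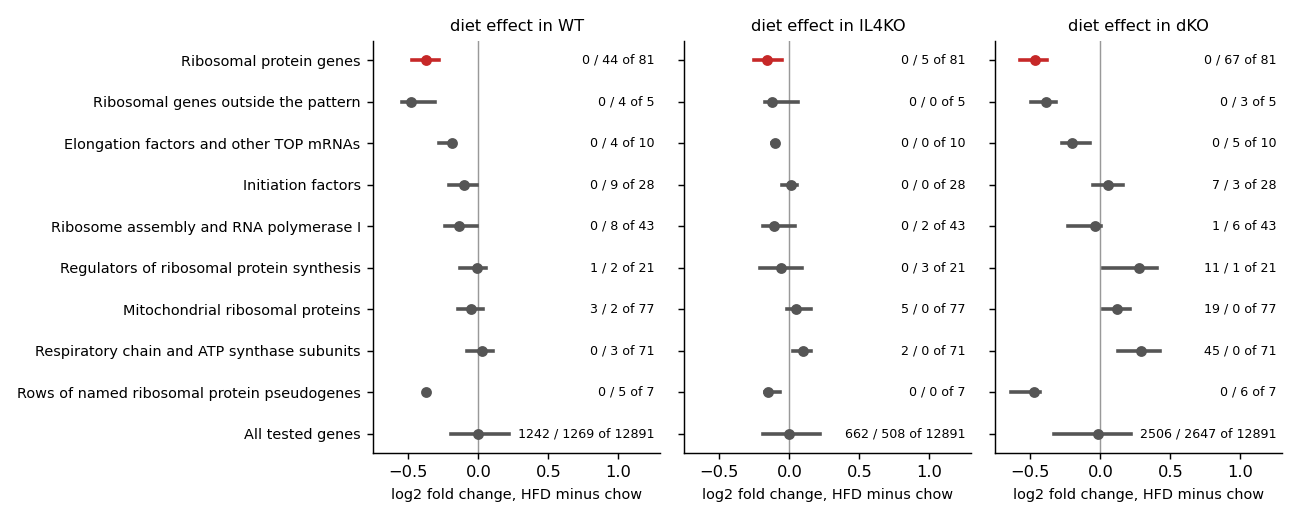
Diet effect (log2 fold change, HFD minus chow) in WT, IL4KO and dKO for the ribosomal protein genes (red) and lists of related genes (grey). Points are medians and lines run between quartiles, and the figures at the right of each row are genes higher, lower and tested. In WT and dKO the members' medians of -0.38 and -0.46 stand beside -0.05 and 0.12 for mitochondrial ribosomal proteins.

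The diet calls were also counted by features of the members' sequence, with no test of the splits. Of 29 tested members with the start motif 12 fell in WT and 22 in dKO, and of 31 without it 16 fell in WT and 27 in dKO. With CCGGAAG 11 of 25 fell in WT and 22 in dKO, and without it 17 of 35 and 27. Reads of these genes may be shared with pseudogenes: 79 of 80 matched, tested members share at least 1 stretch of 50 bases with a GENCODE pseudogene transcript, with a median of 8 pseudogenes and 120 for Rpl7a. The share of 50-base stretches found in no other gene's transcripts ran from 1.35% for Rps27 to 100%, with a median of 50%. Among the 40 members at or above 50%, 23 fell in WT and 34 in dKO, and among the 40 below it 20 and 33. In IL4KO against WT on chow 14 and 22 of the 40 were lower.

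Calls were counted by level as well. With a mean of at least 20 CPM, 38 of 48 members fell with diet in WT, and below that 6 of 33, while the medians were -0.38 and -0.36. In dKO, with totals of 12692787 to 30205070 counts against 8601857 to 18240402 in WT, 43 of 48 and 24 of 33 fell. As a background for short genes, of 265 tested non-members with transcripts under 1 kb, 22 were lower and 25 higher with diet in WT (median -0.04), and 58 and 55 in dKO (median 0.00). Rows of the table named for ribosomal protein pseudogenes had 5 of 7 lower in WT (median -0.37) and 6 of 7 in dKO (median -0.47). Adding these rows to their parent genes changed the 44 calls in WT to 47 and left 67 in dKO.

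**Figure D5:**
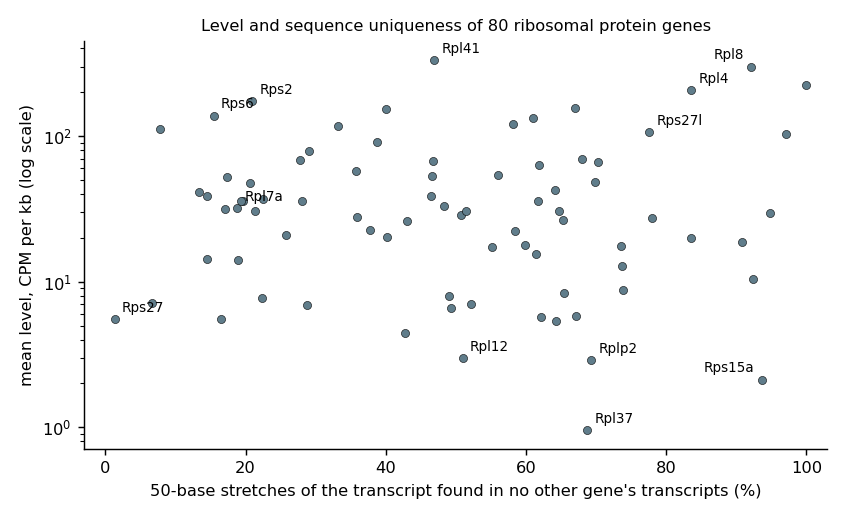
Mean level over 23 libraries (CPM per kb of transcript, log scale) of 80 members against the share of 50-base stretches of the transcript found in no other gene's transcripts (%). Each point is a gene, and Rps15a, at 2.12, was scaled by a transcript of 5179 bases. Levels from 0.954 (Rpl37) to 333 (Rpl41) occur over the range of uniqueness, with a rank correlation across genes of -0.04.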

How the data were processed

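The authors deposited a table of estimated counts per gene for the 23 libraries and a table of log2 values. Per the submitters' processing notes, reads were handled with bcl2fastq 2.16, TopHat2 2.0.8 and Partek on mm10; the annotation, counting and strand settings are in none of the sources at hand. Estimated counts were rounded and tested with edgeR 4.0.16 in R 4.3.3: TMM factors, filterByExpr, and 1 quasi-likelihood fit of the 6 group means (17 residual degrees of freedom), two-sided, with Benjamini-Hochberg adjustment over 12891 genes and calls at FDR below 0.05. CPM used TMM-scaled totals. The deposited log2 values served only as an alternative, with limma 3.58.1; DESeq2 1.42.0, limma-voom, other scalings and filters, thinning and leaving out libraries were the others. Intervals and tests cover the spread between mice.

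The members and gene lists were chosen with earlier results of these data known. Named were a set of members of known role, the paralogs, up to 6 called members per direction and comparison by size at 2 CPM or more, and the extremes of level and covariation; Rps2 and the genes named from other lists were chosen after their values were seen. The fit was also run on simulated data in which genes were drawn independently and changes were put into WT_HFD only. That run does not bear on counts of members that vary together. Results of some members are not reported here.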

Additional observations from a re-analysis of the deposited data

Results flagged for a closer look

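In groups of 4 mice, a library was looked at again where its gap to the nearest other, over the group's range, passed Dixon's 95% critical value. Of 195 such groups (38 named members and the members' share of counts), 13 did, or 6.67%, where chance gives about 1 in 20. In WT_chow replicate 3, Rpl13a had 37.1 CPM (others 31.1 to 31.9), Rpl26 had 6.07 CPM (3.29 to 3.52) and Rps4l had 24.4 CPM (18.6 to 18.8). Rps27a had 21.4 CPM in WT_chow replicate 2 (25.2 to 25.8). In IL4KO_chow, Rps29 had 9.39 CPM in replicate 2 (1.11 to 1.39), Rpl22l1 had 2.43 and Rpl36a had 3.58 CPM in replicate 3 (2.04 to 2.09 and 5.69 to 6.12), and Rpl12 had 1.95 and Rps12 had 6.41 CPM in replicate 4 (3.29 to 3.52 and 1.67 to 1.90). In dKO_chow, Rpl13a had 48.7 CPM in replicate 2 (38.0 to 38.4) and Rps26 had 27.0 CPM in replicate 3 (29.9 to 30.3). In dKO_HFD replicate 4, Rpl26 had 4.69 CPM (2.26 to 2.65) and Rps12 had 5.23 CPM (1.28 to 1.76).

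Diet effects that differed between genotypes by the edgeR test of the difference are given as differences of log2 fold changes. For dKO minus WT these were -0.44 for Rps10, -0.65 for Rps27a and -0.35 for Rps7. For dKO minus IL4KO they were -0.62 for Rpl13a, -1.38 for Rpl26, -0.66 for Rpl39, -0.48 for Rpl41, -0.50 for Rps10 and -0.52 for Rps14. The others were -0.67 for Rps24, -0.86 for Rps27a, -0.50 for Rps4x, -0.44 for Rps6 and -0.34 for Rps9.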

How the results depend on the processing

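No paired analysis was possible because the labels give no replicate numbers. Each result was recomputed under 35 other settings, 1 of them (dKO_HFD replicate 4 and IL4KO_HFD replicate 2 left out together) chosen after seeing the data. Counts of called members stayed within 1.5 times for diet in dKO (56 to 69), diet in WT (36 to 52), dKO against IL4KO on chow (35 to 61) and the IL4KO minus WT difference (0). No median over the members moved by more than the spread between libraries, and 23 of 57 named calls stood under all 35 settings. The cause of the changes that follow was not tested.

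Diet in IL4KO (5 calls) gave 2 with upper quartile factors, 1 with only the compared groups, 3 with limma-voom, and 2 each with the deposited log2 values, with thinning and with both libraries out; leaving out single libraries gave 0 to 7. IL4KO against WT gave 19 to 42 on chow (36 calls) when single libraries were left out. On HFD (1 call) it gave 0 with no filter, the compared groups, limma-voom and thinning, 2 with DESeq2, 4 with both libraries out and 0 to 3 leaving out single libraries. dKO against WT gave 7 with thinning on chow (11 calls), and on HFD (9 calls) 5 with the deposited log2 values, 20 with both libraries out and 3 to 16 leaving out single libraries. dKO against IL4KO on HFD (1 call) gave 0 with the compared groups and with both libraries out, 2 with DESeq2 and 0 to 2 leaving out single libraries. The dKO minus WT difference (3 calls) gave 1 with no filter, the compared groups and thinning, 7 with both libraries out and 0 to 7 leaving out single libraries. The dKO minus IL4KO difference (13 calls) gave 28 with upper quartile factors and 5 to 28 leaving out single libraries. Rps29, dKO against IL4KO on chow, turned from -1.44 to 0.019 without IL4KO_chow replicate 2, and leaving out single libraries gave -1.75 to 0.019. The shallowest library had 7114454 counts, and what depth contributes to lost calls was not tested.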
